A study of Mus musculus with 86 samples.

Results

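The nuclear-encoded respiratory chain genes described here are 88 of the 53664 mouse genes in the files, chosen by symbol alone: protein-coding nuclear genes whose symbols start with Nduf (assembly factors left out), Sdha to Sdhd, Uqcr, Cyc1, Cycs, Cox4i, Cox5, Cox6, Cox7, Cox8 or Atp5. They were sorted into complex I with 36 genes, complex II with 4, complex III with 9, complex IV with 20, complex V with 18 and cytochrome c with 1. Ndufa4 and its relative Ndufa4l2 were counted in complex IV, where the protein Ndufa4 resides despite its name. Atp5s and Cox7a2l carry matching symbols but are not subunits of the complexes their prefixes name, and both were kept.

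The respiratory chain moves electrons from NADH and succinate to oxygen and uses the energy to build a proton gradient across the inner mitochondrial membrane. Complex I (NADH dehydrogenase) and complex II (succinate dehydrogenase) feed electrons to ubiquinone, complex III (the cytochrome bc1 complex) hands them to cytochrome c, complex IV (cytochrome c oxidase) reduces oxygen, and complex V (ATP synthase) spends the gradient to make ATP. Most subunits are encoded in the nucleus and imported as proteins, a core set is encoded by mitochondrial DNA, complex II is wholly nuclear, and neurites hold many mitochondria far from the nucleus.

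RNA was sequenced from the soma and the neurites of mouse neuronal cells grown on porous membranes, through which neurites extend while cell bodies stay on top. The question addressed was how loss or mutation of TDP-43, an RNA-binding protein encoded by Tardbp, changes which RNAs reach neurites. CAD is a catecholaminergic neuronal line and N2A a neuroblastoma line, and serum was withdrawn so that the cells put out neurites. The CAD and N2A cells called wild-type and knockout were the same TetOff clones: their endogenous Tardbp alleles had been inactivated, and an integrated HA-tagged TDP-43 transgene kept the protein present until doxycycline switched it off. By the sample labels wild-type cultures received no doxycycline and knockout cultures 2 µg/mL for 48 h (the methods of the study state a lower dose), so every one of these groups carries the transgene and each knockout group also received the drug. In a further experiment on CAD cells, which retained their endogenous alleles, a single integrated copy of HA-tagged TDP-43 with a synthetic 3′ untranslated region was induced by doxycycline, either wild-type or with the amyotrophic lateral sclerosis mutation Q331K. The 36 libraries form 12 groups of 3. Estimated counts per library ran from 25009904 to 32895542 in CAD, from 22726534 to 31911030 in N2A and from 9783050 to 15870647 in the transgene experiment, so the last has the least precision for rare RNAs. The labels number the replicates 1 to 3 and say no more, so p-values measure the spread between these samples, which may be technical.

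Tardbp checked the labels. Levels are given as TMM-scaled CPM, scaled within each experiment. In CAD soma it stood at 515, 569 and 527 in wild-type and at 92.7, 90.3 and 98.3 in knockout, and in CAD neurites at 536, 501 and 491 against 150.03, 134 and 129. In N2A soma it stood at 546, 601 and 590.1 against 160.0, 168 and 179, and in N2A neurites at 695, 665 and 689 against 265, 264 and 243. No knockout library reached the lowest wild-type library of its compartment, with log2 changes of -2.52, -1.89, -1.78 and -1.41 in that order. In the transgene cells, where gene counts do not separate the transgene from the endogenous gene, Tardbp stood at 808, 787 and 715 in wild-type soma and 745, 724 and 806 in Q331K soma, which overlap.

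Marker lists checked the lines, by summed TPM in wild-type soma. The 8 neuronal genes summed to 1303, 1769 and 1928 in CAD, to 887, 1009.5 and 1141 in N2A and to 1263, 1335 and 1198 in the transgene cells, with Tubb3 the most abundant. The 5 catecholaminergic genes summed to 30.8, 48.1 and 54.2 in CAD and to 6.03, 5.44 and 6.13 in N2A. In CAD and N2A the lists for astrocytes, microglia, fibroblasts and muscle had group means of at most 3.53 TPM and the microglial gene C1qa was at 0 in every group. In the soma of transgene cells with wild-type TDP-43 the fibroblast list stood at 19.9, 23.2 and 21.1, almost all of it Dcn. In bulk RNA fewer cells and less RNA per cell cannot be told apart.

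Of the 88 genes, 84 passed the filter on low counts in CAD and in N2A and 83 in the transgene experiment. Cox8c, a testis isoform of complex IV, had no count in any library. Cox8b, the heart and muscle isoform, had 9 counts over the 12 CAD libraries and none elsewhere. Cox6b2, a testis isoform, had 32 in CAD, none in N2A and 94.0 in the transgene libraries. A second annotated Atp5o locus had 2.75 in CAD, 5.24 in N2A and none in the transgene libraries, and Cox6a2, the heart and muscle isoform of subunit 6a, had 36 in the transgene libraries and was tested in CAD and N2A only.

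Levels between genes were compared in TPM, which corrects for length. In wild-type CAD soma complex V held the most abundant RNA by mean, Atp5b (the catalytic beta subunit) at 874 ± 180.4 TPM (SD, n = 3). Cox4i1 (a structural subunit of complex IV) at 632 ± 128 and Cox7c at 545 ± 117 followed. The summed TPM of the 88 genes in these libraries was 10295.9, 13151 and 15657.5. These SDs therefore include a spread between libraries that the complexes share, and overlap of SDs does not decide the order of genes. In complex I the highest was Ndufa7 at 253 ± 57.5 and the lowest Ndufa11 at 11.4 ± 2.88. In complex III Uqcrq led at 233 ± 54.9 and the Rieske iron-sulfur protein Uqcrfs1 was lowest at 84.7, and in complex II the iron-sulfur subunit Sdhb led at 185 ± 34.8 and the membrane anchor Sdhd was lowest at 67.0 ± 14.9. Wild-type N2A soma had the same leaders in complexes II to V, with Atp5b at 697 ± 82.8, Cox4i1 at 727 ± 94.0, Uqcrq at 239.7 ± 33.9 and Sdhb at 184 ± 27.6, while Ndufb9 led complex I at 325 ± 35.3. Transgene cells with wild-type TDP-43 stood at 1263 TPM for Atp5b, 899.9 for Cox4i1, 386 for Uqcrq, 312 for Sdhb and 309.7 for Ndufa7 in soma. Transcripts under 200 bases held 1.11, 0.713 and 1.14% of the TPM there and 39.6, 17.3 and 11.3% in wild-type CAD soma, so TPM is not compared between these experiments.

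As a share of the TPM on nuclear protein-coding genes, the 88 genes together held 2.32, 2.25 and 2.40% in wild-type CAD soma and 3.29, 3.32 and 3.40% in wild-type CAD neurites. In N2A they held 2.31, 2.24 and 2.39% in soma and 3.22, 3.21 and 3.17% in neurites, and in transgene cells with wild-type TDP-43 2.98, 2.88 and 3.17% and 3.47, 3.38 and 3.28%. Every neurite library lay above every soma library of its experiment and genotype. In wild-type CAD soma complexes V and IV took 0.698 ± 0.0230 and 0.682 ± 0.0254% (SD, n = 3), complex I 0.623 ± 0.0147%, complex III 0.243 ± 0.00974% and complex II 0.0772 ± 0.00258%. In wild-type CAD neurites complex IV was the largest at 1.19 ± 0.0232%, ahead of complex V at 0.898 ± 0.0251%, whereas in wild-type N2A neurites complexes V and IV stood at 0.921 ± 0.00839 and 0.914 ± 0.0250%, within 1 SD of each other.

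**Figure D1:**
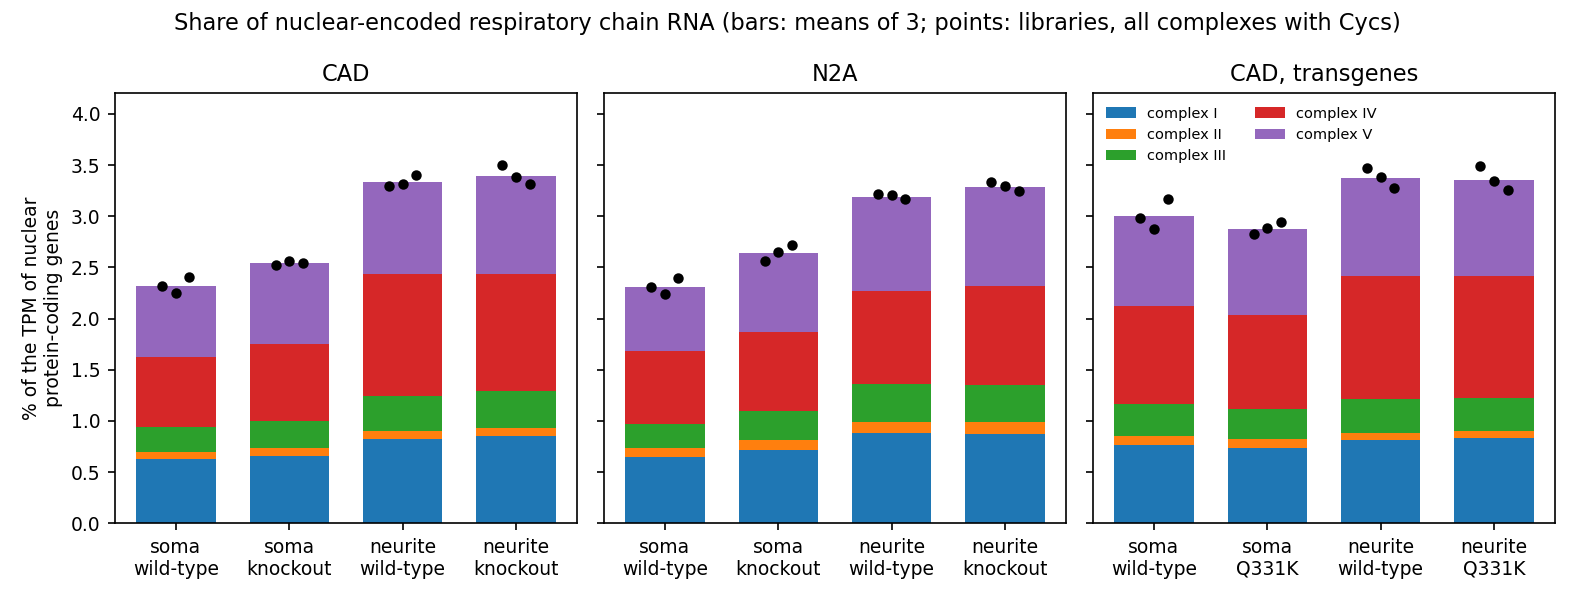
Stacked bars give the percent of the TPM on nuclear protein-coding genes held by each complex in soma and neurites of each genotype (mean of 3 libraries), and points give the total of each library. The total runs from 2.24% in a wild-type N2A soma library to 3.50% in a CAD knockout neurite library, and in wild-type CAD complex IV has the largest step from soma to neurites.

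Localization was measured as the localization ratio (LR), the log2 of the level in neurites over the level in soma on the TMM scale, where the median gene is near 0 by construction. Values per replicate match soma and neurite libraries of the same number, which the labels do not call pairs. Deviations from group means correlated more within a number than between numbers in wild-type CAD (0.12, 0.08 and 0.21). They did not in knockout CAD (-0.16, 0.02 and -0.05) or wild-type N2A (-0.06, 0.02 and 0.01). Orders and overlaps of LRs per replicate depend on this matching. In wild-type CAD cells all complexes were higher in neurites, complex IV most and complex II least. The median LR over each complex, taken for each replicate number in turn, was 1.41, 1.46 and 1.25 for complex IV, 1.23, 1.13 and 1.12 for complex III, 1.12, 1.22 and 1.09 for complex V, 1.10, 1.17 and 1.02 for complex I and 0.68, 0.70 and 0.56 for complex II. Complex IV lay above and complex II below each of the others in every replicate, while complexes I, III and V overlapped. By edgeR's quasi-likelihood test with Benjamini-Hochberg adjustment at FDR 0.01, 82 of 84 genes were called higher in neurites, against 23.7% of all 17343 genes tested (17.7% of all genes were called lower), with a median LR of 1.13 against -0.02 over all genes. The other 2 genes, both of complex IV and rare, had positive LRs short of the threshold: 1.32 for Cox6a2 and 0.79 for Ndufa4l2.

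**Figure D2:**
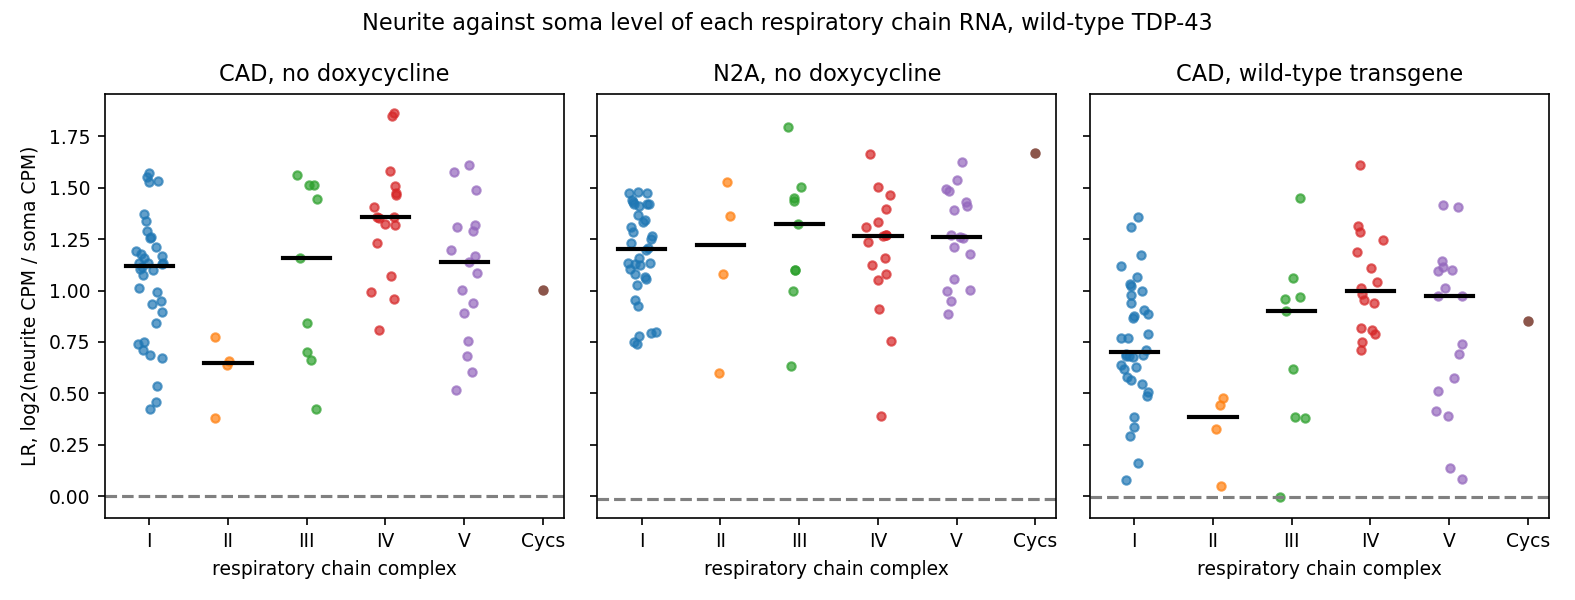
Each point is the wild-type LR (log2 neurite over soma, TMM scale) of a gene, grouped by complex, in CAD, N2A and the transgene cells; black bars mark the median and the dashed line the median of all genes. Complex II has the lowest median in CAD (0.64) and in transgene cells (0.38), and in N2A the medians of the 5 complexes lie between 1.21 and 1.32.

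Within each complex of CAD cells the LR differed between subunits. In complex I Ndufs1, which carries iron-sulfur clusters, had 0.46 (SE 0.06), and the highest value was 1.57 (SE 0.07) for the accessory subunit Ndufb9. Complex III ran from 0.42 (SE 0.07) for the core protein Uqcrc1 to 1.56 (SE 0.08) for Uqcrq, and complex V from 0.52 (SE 0.06) for the alpha subunit Atp5a1 to 1.61 (SE 0.10) for Atp5mpl, a small membrane-embedded protein. In complex IV the small subunits Cox6a1 and Cox8a reached 1.86 (SE 0.10) and 1.84 (SE 0.08). Cox6a1 showed this in its levels, with 63.7, 64.6 and 82.6 CPM in wild-type CAD soma and 242, 276 and 247 in neurites. The neurite values all lay far above the soma values. Cytochrome c (Cycs), which shuttles between complexes III and IV, had an LR of 1.01 (SE 0.10).

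In wild-type N2A cells the complexes lay closer together, and complex II did not lie below the others in every replicate. Median LRs by replicate number were 1.28, 1.30 and 0.99 for complex I, 1.42, 1.25 and 0.99 for complex II, 1.39, 1.499 and 1.09 for complex III, 1.40, 1.30 and 1.02 for complex IV and 1.33, 1.38 and 1.19 for complex V. Replicate 3 gave the lowest value in each complex, and the 5 complexes overlapped. Taken as a mean over genes, complex II was the lowest at 1.14, against 1.18 to 1.26 in the others. In the edgeR test 83 of 84 genes were called higher in neurites, against 32.5% of all 17912 genes (26.6% were lower), with a median of 1.26. The remaining gene, Ndufa4l2, had an LR of 0.91 (adjusted p = 0.0209 by edgeR). The highest values were those of Uqcrb in complex III (1.80, SE 0.11), Cycs (1.66, SE 0.11) and Cox7a2l, a factor for supercomplex assembly (1.66, SE 0.09). Sdhd reached 1.52 (SE 0.11), Atp5mpl 1.62 (SE 0.11), and in complex I the iron-sulfur subunit Ndufs7 1.47 (SE 0.09). The lowest was Cox6a1 at 0.39 (SE 0.09), with 109, 100.5 and 109.9 CPM in soma and 141, 149 and 129 in neurites, so the gene with the highest LR in CAD had the lowest in N2A.

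In transgene CAD cells with wild-type TDP-43 the LRs were smaller and spread more. Median LRs by replicate number were 0.96, 1.36 and 0.73 for complex IV, 0.80, 1.16 and 0.68 for complex V, 0.77, 1.13 and 0.52 for complex III, 0.80, 1.01 and 0.51 for complex I and 0.39, 0.51 and 0.22 for complex II. Complex II was the lowest in each replicate. By edgeR 73 of 83 genes were called higher in neurites, against 14.9% of all 13940 genes (12.6% were lower), with a median of 0.82. Of the 10 not called, Uqcrc1 had an LR of -0.00 (SE 0.07), Sdha 0.05 (SE 0.06), Ndufv1, the NADH-binding flavoprotein, 0.08 (SE 0.08), Atp5a1 0.14 (SE 0.07) and Ndufs1 0.16 (SE 0.09). All 5 encode large catalytic or core subunits, and Ndufs7, Ndufa4l2, Cox7a1, Atp5s and Atp5g2 made up the rest. The highest were Cox7a2l at 1.62 (SE 0.11), Uqcrh at 1.46 (SE 0.11), Atp5mpl at 1.43 (SE 0.14), Atp5e at 1.42 (SE 0.11) and Ndufa3, an accessory subunit of complex I, at 1.38 (SE 0.17).

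The direction of these ratios depends on the scale. On log2 ratios of TPM without rescaling, every complex was on average lower in wild-type CAD and N2A neurites than in soma, with medians over each complex, averaged over replicates, of -0.63 for complex I, -1.08 for II, -0.59 for III, -0.40 for IV and -0.58 for V in CAD, where the median of all genes was -1.59, and of -0.40, -0.37, -0.24, -0.38 and -0.27 in N2A, where it was -1.49. The N2A replicates spread widely, with -0.77, 0.0088 and -0.43 for complex I, -0.61, -0.018 and -0.48 for II, -0.63, 0.24 and -0.33 for III, -0.75, 0.032 and -0.42 for IV and -0.61, 0.077 and -0.27 for V, so replicate 2 alone was above 0 in all but complex II. Transcripts under 200 bases held 64.5, 42.2 and 39.3% of the TPM in wild-type CAD neurites and 39.6, 17.3 and 11.3% in soma, and at most 1.73% of the counts of a CAD library. With scaling by library size alone, chosen after seeing the data, 54 genes were called higher and 2 lower, among them Sdha, in CAD, 79 higher in N2A, and 35 higher and 5 lower in the transgene cells, where the median of all genes moved to -0.69, -0.37 and -0.53. On the share of nuclear protein-coding TPM, complex II of CAD and of transgene cells stood lower in neurites on average (log2 ratios of -0.06 and -0.40), and the other complexes higher. In transgene cells complexes I (0.152, 0.107 and -0.011) and III (0.204, 0.255 and -0.083) were not higher in replicate 3. Every statement on neurite enrichment here is therefore relative to the median gene.

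The 4 genes of complex II, which encode the flavoprotein, the iron-sulfur protein and the membrane anchors of succinate dehydrogenase, differed among themselves. Sdha stood at 101, 109 and 106 CPM in wild-type CAD soma and 137, 136 and 137 in neurites, an LR of 0.38 (SE 0.05). Sdhb stood at 119, 111 and 128 in soma and 182, 184 and 197 in neurites, an LR of 0.65 (SE 0.08). Sdhc stood at 50.0, 46.3 and 55.5 in soma and 84.2, 72.9 and 78.5 in neurites, an LR of 0.63 (SE 0.08). Neurite and soma values did not overlap for any of the 3, nor for Sdhd, with 36.9, 37.2 and 41.7 in soma, 63.1, 64.0 and 71.0 in neurites and an LR of 0.78 (SE 0.08). In N2A the LRs were 0.60 (SE 0.07) for Sdha, 1.08 (SE 0.09) for Sdhb, 1.36 (SE 0.13) for Sdhc and 1.52 (SE 0.11) for Sdhd, and in transgene cells 0.05 (SE 0.06), 0.33 (SE 0.08), 0.48 (SE 0.09) and 0.44 (SE 0.09), so the catalytic subunit was lowest in each.

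Comparing the wild-type lines directly, N2A soma had lower TMM-scaled levels of many respiratory chain RNAs than CAD soma, while on the share of TPM the total showed no such deficit. The 88 genes held 2.32% in N2A soma and 2.33% in CAD soma (means of 3), with complexes I (0.649 against 0.623%), II (0.0823 against 0.0772%) and IV (0.715 against 0.682%) higher in N2A and complexes III (0.236 against 0.243%) and V (0.629 against 0.698%) lower, the last in every N2A library against every CAD library. In an edgeR fit of the 12 wild-type libraries, 37 of 84 genes were called lower in N2A soma and 13 higher, against 31.4 and 22.7% of all 18668 genes, with a median of -0.21. Complex I had 17 lower and 4 higher, complex II 1 and 1, complex III 4 and 1, complex IV 7 and 4, and complex V 8 and 3. With upper-quartile scaling the split was 24 lower and 18 higher, and that of all genes turned from 5857 lower and 4243 higher to 4580 lower and 5657 higher. The largest deficit was that of Atp5e, the epsilon subunit of ATP synthase, at 31.3, 27.2 and 32.2 CPM in CAD soma and 14.8, 13.7 and 15.05 in N2A, each scaled within its own line, a fold of 0.417 (log2 -1.26, SE 0.08). Uqcrc1 (log2 -0.97, SE 0.07), Ndufs8 (-0.97, SE 0.11), Cox4i2 (-0.93, SE 0.15) and Ndufb11 (-0.86, SE 0.10) followed. On the other side Cox6a2, at 0.184, 0.273 and 0.198 CPM in CAD soma and 1.79, 1.54 and 1.86 in N2A, was 6.77-fold higher (log2 2.76, SE 0.32), Ndufa4l2 3.21-fold (log2 1.68, SE 0.26) and Cox7a1 2.02-fold (log2 1.01, SE 0.18), ahead of Atp5s (log2 0.90, SE 0.16) and Ndufa6 (log2 0.57, SE 0.09). Without replicate 2 the calls fell to 33.

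The LR itself differed between the lines for 16 genes, 10 higher and 6 lower in N2A, against 15 and 5.76% of all genes, by an interaction term in the same edgeR fit. Complex IV supplied 4 of the 6 lower: Cox6a1 (log2 -1.48, SE 0.13, adjusted p = 2.9e-06 by edgeR), Cox8a (-0.73, SE 0.12), Cox4i1 (-0.61, SE 0.10) and Cox6c (-0.47, SE 0.09), joined by Ndufb9 (-0.84, SE 0.10) and Uqcr11 (-0.42, SE 0.11). Complex II supplied 3 of the 10 higher, namely Sdhd (0.73, SE 0.14), Sdhc (0.71, SE 0.16) and Sdhb (0.41, SE 0.11), beside Ndufs7 (0.72, SE 0.15), Cycs (0.64, SE 0.16), Uqcrb (0.63, SE 0.11), Uqcrfs1 and Atp5f1 (both 0.59), and Ndufv2 and Atp5a1 (both 0.47). Ndufb9 stood at 60.0, 52.5 and 63.8 CPM in CAD soma, 174, 169.6 and 179 in CAD neurites, 102, 95.2 and 101 in N2A soma and 168, 169.7 and 160.3 in N2A neurites. Each line is scaled on its own here, so overlap between the lines is not read from these values. Upper-quartile scaling gave 4 higher and 9 lower, and turned the split of all genes from 2794 higher and 1075 lower to 1208 and 1884. Without replicate 1 the test called 6 genes and without replicate 2 it called 2.

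After TDP-43 loss, CAD soma showed a small set of respiratory chain changes, 3 falls and 7 smaller rises. Cox7a1, the heart and muscle isoform of subunit 7a, stood at 1.45, 1.58 and 1.36 CPM in wild-type and 0.317, 0.530 and 0.538 in knockout. Cox4i2, an isoform of subunit 4 known from lung and from hypoxia, stood at 9.06, 7.38 and 7.66 against 2.98, 3.29 and 3.71. Ndufa3 stood at 7.95, 7.57 and 9.93 against 5.07, 4.99 and 4.63. In none of these 3 did the groups overlap, and the folds were 0.320 (log2 -1.64, SE 0.26), 0.415 (-1.27, SE 0.13) and 0.577 (-0.79, SE 0.12), with adjusted p of 0.000145, 1.25e-06 and 8.12e-05 in edgeR.

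The 7 genes that rose in CAD soma did so by 1.18 to 1.38-fold. Cox6b1, a subunit facing the intermembrane space, rose from 44.3, 40.4 and 48.6 CPM to 62.2, 63.4 and 58.8 (log2 0.47, SE 0.07), and Atp5b from 945, 879 and 1012 to 1150.2, 1189.5 and 1205 (log2 0.32, SE 0.07). Knockout and wild-type did not overlap in either. The accessory subunits of complex I Ndufa12 (log2 0.40, SE 0.09), Ndufa13 (0.40, SE 0.08) and Ndufab1, also the mitochondrial acyl carrier protein (0.34, SE 0.06), rose as well, as did Ndufa4 (0.33, SE 0.08) and Sdha (0.24, SE 0.05). These 7 and 3 of 84 genes compare with 11.2% of all genes called higher and 11.6% lower. Including genes short of the threshold, 69 of 84 had positive values, 33 had an unadjusted p under 0.05, and the median was 0.12. For the count by unadjusted p no share over all genes is given. In 26 genes (31.0%) every knockout library was above every wild-type library, against 21.5% of all genes, and in 4 every one was below, against 22.5%. Without replicate 2 only the 3 falls were called, and without replicate 1 the calls numbered 6.

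In CAD neurites the same 3 genes fell and 3 rose. Ndufa3 went from 26.9, 23.9 and 22.6 CPM in wild-type to 10.2, 9.23 and 8.13 in knockout, a fold of 0.376 (log2 -1.41, SE 0.11). Cox4i2 went from 16.1, 18.7 and 15.8 to 6.67, 5.01 and 6.11, a fold of 0.352 (log2 -1.51, SE 0.12), and Cox7a1 from 4.37, 4.70 and 3.26 to 1.15, 1.35 and 1.69, a fold of 0.341 (log2 -1.55, SE 0.24). No knockout library reached the wild-type range in any of them. Ndufa12 (log2 0.36, SE 0.09), Cox6b1 (0.28, SE 0.07) and Sdha (0.21, SE 0.05) rose. Of all genes 11.8% were called higher and 13.5% lower, and the members' median was -0.00. Groups did not overlap for 11 genes in each direction, 13.1% each, against 22.6% of all genes higher and 23.9% lower. Without replicate 1, or without replicate 2, 3 genes were called.

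Ndufa3 was the complex I gene with the lowest value in both CAD compartments, and its RNA is described by transcript. The more abundant coding transcript, Ndufa3-201, had 22.7, 29.4 and 38.1 TPM in wild-type CAD soma and 14.4, 9.74 and 8.83 in knockout soma, and in neurites 22.4, 29.6 and 35.3 against 11.6, 10.98 and 7.41. Another coding transcript, Ndufa3-202, had soma means of 6.13 TPM in wild-type and 2.02 in knockout. The transcript annotated for nonsense-mediated decay, Ndufa3-204, had soma means of 21.7 TPM in wild-type and 6.56 in knockout. The transcript with a retained intron, Ndufa3-205, had 1.38, 2.11 and 2.52 TPM in wild-type soma and 3.10, 4.21 and 6.21 in knockout soma, so it stood higher in each knockout library while Ndufa3-201 stood lower. Transcript levels are estimates that share reads, and they were not tested. In N2A cells Ndufa3-201 averaged 39.7 TPM in wild-type and 46.8 in knockout soma and Ndufa3-205 2.95 and 2.81, and the gene as a whole was not called, at 13.4, 11.8 and 11.4 CPM in wild-type soma and 15.5, 16.9 and 14.1 in knockout soma.

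In N2A soma a broad rise accompanied TDP-43 loss. Atp5o, a subunit of the stalk of ATP synthase, rose from 60.0, 57.9 and 63.1 CPM to 85.0, 98.5 and 103 (1.59-fold, log2 0.67, SE 0.09, adjusted p = 9.8e-05 by edgeR). Ndufs7 rose from 13.3, 12.3 and 14.4 to 17.9, 20.1 and 21.4 (1.49-fold, log2 0.57, SE 0.09). Sdhd rose from 28.8, 29.2 and 37.4 to 39.4, 46.4 and 51.3 (1.44-fold, log2 0.52, SE 0.11). Every knockout library lay above every wild-type library in all 3, as for Ndufa10 (47.0, 47.0 and 48.0 against 60.1, 67.7 and 75.4, log2 0.52, SE 0.09) and Ndufa2 (13.2, 11.4 and 14.8 against 17.6, 18.6 and 21.2, log2 0.54, SE 0.10), both accessory subunits of complex I. In all, 35 of 84 genes were called higher and 2 lower in knockout soma, against 10.9 and 5.15% of all 17912 genes, and 77 had positive values with a median of 0.33 against -0.02 over all genes.

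By complex, 14 of 36 genes of complex I rose (median 0.32), 3 of 4 of complex II (0.46), 4 of 9 of complex III (0.33), 4 of 17 of complex IV (0.24) and 10 of 17 of complex V (0.41). In complex II Sdhb (0.44, SE 0.09) and Sdha (0.31, SE 0.07) rose beside Sdhd, and Sdhc had 0.48, short of the threshold. In complex IV the genes that rose were Cox6b1, Cox7a2l, Ndufa4 and Cox7a2, while the abundant Cox4i1 and Cox6a1 had 0.15 and -0.02 and were not called. In 56 genes (66.7%) every knockout library was above every wild-type library, against 23.3% of all genes, and in 3 every one was below, against 18.8%. The size of this result depends on single libraries and on the scale: without replicate 2 none of the 35 rises was called and 1 gene was, lower in knockout (47 had an unadjusted p under 0.05 in edgeR), without replicate 3 the test called 21 higher and 2 lower, with upper-quartile scaling it called 24 and 2, and the split of all genes then went from 1955 higher and 922 lower to 1435 and 1492. RNAs retained in the nucleus, a list led by Malat1, had summed TPM of 656, 308 and 217 in wild-type N2A soma and 482, 147 and 101 in knockout soma, which overlap. RNA encoded in mitochondria took 4.10, 6.21 and 5.49% of the counts in wild-type soma and 6.91, 8.95 and 7.28% in knockout soma, without overlap. With those counts left out all 37 calls were kept. The oligodendrocyte list went from 8.37, 12.3 and 12.1 TPM to 8.12, 5.75 and 5.39, without overlap. So did the microglial list, from 2.36, 1.83 and 3.35 to 1.40, 1.37 and 0.832. The fibroblast list fell from 2.43, 3.23 and 2.15 to 1.06, 1.42 and 0.825. The muscle list went from 4.06, 3.15 and 3.37 to 1.68, 1.39 and 2.06, and the catecholaminergic list from 6.03, 5.44 and 6.13 to 4.02, 4.84 and 4.30. These did not overlap either, while the astrocyte and neuronal lists overlapped. The part of these shifts in the result was not tested otherwise.

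The genes that fell in N2A were isoforms of complex IV. Ndufa4l2, which is known to be induced in hypoxia, went from 1.68, 1.81 and 1.49 CPM in wild-type soma to 0.230, 0.461 and 0.211 in knockout soma, a fold of 0.184 (log2 -2.44, SE 0.38), and from 3.10, 3.25 and 3.03 to 0.446, 0.578 and 0.191 in neurites, a fold of 0.131 (log2 -2.93, SE 0.37). Cox7a1 went from 3.48, 3.69 and 3.08 to 1.69, 0.956 and 0.544 in soma (log2 -1.71, SE 0.33) and from 9.02, 9.54 and 7.04 to 1.74, 1.41 and 0.726 in neurites (log2 -2.73, SE 0.33). Cox4i2 went from 13.2, 12.7 and 9.38 to 4.196, 2.82 and 1.68 in neurites (log2 -2.03, SE 0.33), and in soma, where it had 3.798, 5.85 and 4.97 against 2.76, 2.34 and 0.906, it missed the threshold (log2 -1.30, SE 0.34, adjusted p = 0.0109 by edgeR). In each of these comparisons all knockout libraries lay below all wild-type libraries. In CAD cells Ndufa4l2 had 0.553, 0.328 and 0.452 CPM in wild-type soma and 0.602, 0.948 and 1.13 in knockout soma, which was not called.

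**Figure D3:**
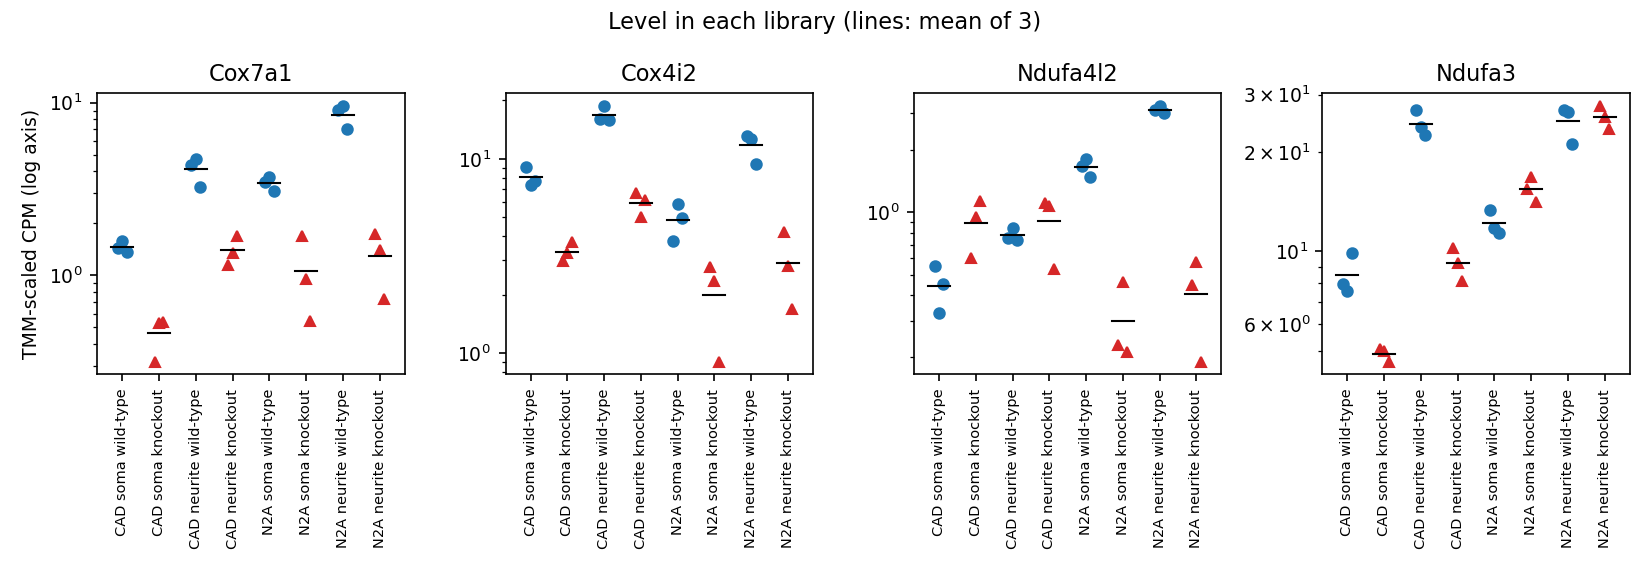
TMM-scaled CPM (log axis) of Cox7a1, Cox4i2, Ndufa4l2 and Ndufa3 in each library of CAD and N2A, by compartment and genotype; lines mark the mean of 3. Cox7a1 and Cox4i2 lie lower in every knockout library of both lines, Ndufa3 in CAD alone and Ndufa4l2 in N2A alone.

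In N2A neurites these 3 falls were the calls among 84 genes, against 5.10% of all genes lower and 6.48% higher. No member was called higher by edgeR or by DESeq2, which called 4 lower; 13 had an unadjusted p under 0.05, and the median was -0.02. In 5 genes (5.95%) every knockout library was above every wild-type library, against 17.4% of all genes, and in 12 (14.3%) every one was below, against 20.2%.

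As a share of TPM, the 88 genes held 2.52, 2.57 and 2.54% in CAD knockout soma and 2.56, 2.65 and 2.72% in N2A knockout soma, above the wild-type libraries in both lines, and 3.50, 3.38 and 3.31% and 3.33, 3.30 and 3.24% in knockout neurites, which overlapped with wild-type in CAD and lay just above it in N2A, where the count-based test had a median of -0.02 and called no gene higher by edgeR (13 members had an unadjusted p under 0.05, and DESeq2 called none higher). In N2A soma complex V went from 0.629 ± 0.0230 to 0.773 ± 0.0295% (SD, n = 3), complex I from 0.649 ± 0.0216 to 0.715 ± 0.0154%, complex III from 0.236 ± 0.0126 to 0.278 ± 0.0122% and complex II from 0.0823 ± 0.00427 to 0.1002 ± 0.00541%. These shares were not tested.

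The LR of knockout cells stayed positive. In CAD 81 of 84 genes were called higher in knockout neurites than in knockout soma, against 24.6% of all genes (19.0% lower), and in N2A 81 of 84, against 25.3% (13.1% lower). The median LR per complex in knockout CAD cells was 1.14, 0.90 and 0.87 for complex I, 0.80, 0.63 and 0.60 for II, 1.22, 1.11 and 1.02 for III, 1.33, 1.15 and 1.12 for IV and 1.15, 0.93 and 0.90 for V. Each of these ranges overlapped with that of wild-type. In knockout N2A cells it was 1.07, 0.78 and 0.69 for complex I, 1.01, 0.73 and 0.65 for II, 1.10, 0.87 and 0.76 for III, 1.18, 0.88 and 0.76 for IV and 1.10, 0.74 and 0.79 for V. For complex V all 3 knockout values lay below the lowest wild-type value of 1.19, and in the other complexes the highest knockout value exceeded the lowest wild-type value.

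**Figure D4:**
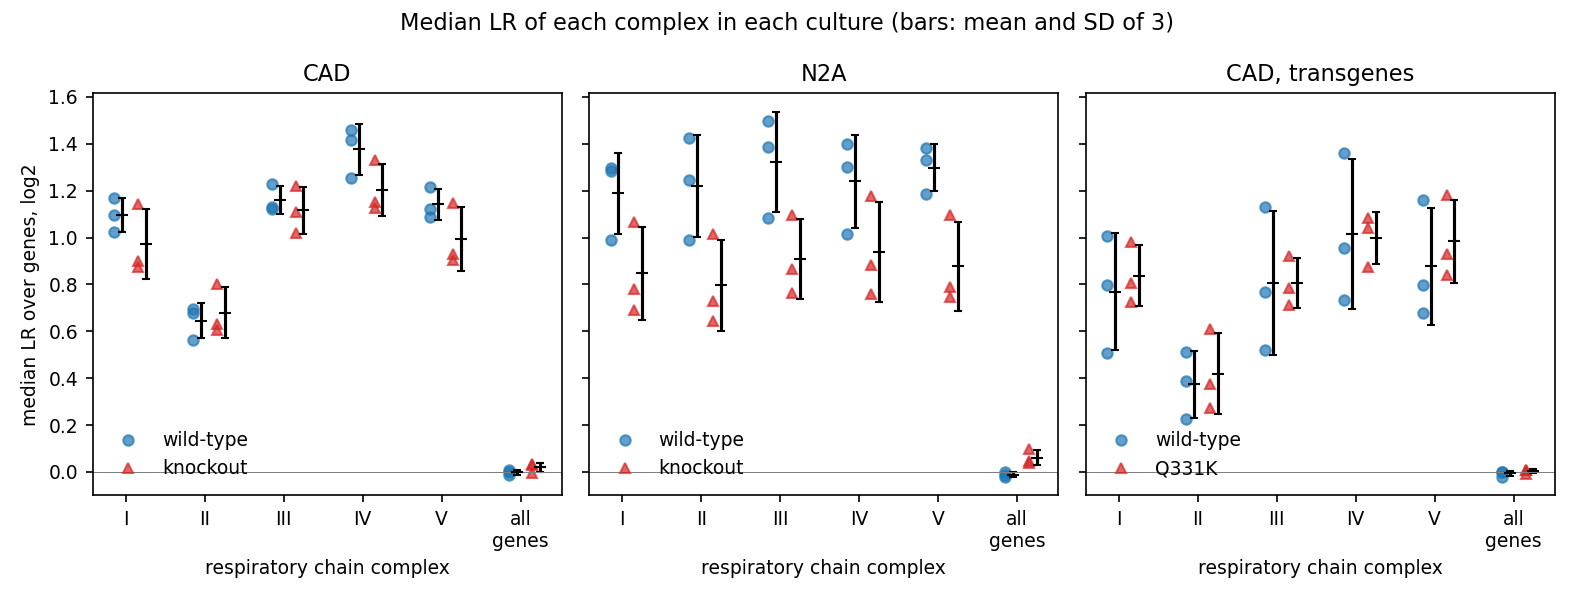
The median LR (log2 neurite over soma, TMM scale) of each complex for each replicate number, with wild-type as circles and knockout or Q331K as triangles, and bars for the mean and SD of 3. In N2A the means go from 1.30 to 0.88 for complex V and from 1.19 to 0.85 for complex I, and in transgene cells the genotypes overlap.

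The change of LR with TDP-43 loss was tested by the interaction of compartment and genotype. In N2A 81 of 84 genes had negative values, with medians of -0.37 for complex I, -0.43 for II, -0.39 for III, -0.29 for IV and -0.43 for V. No gene passed FDR 0.01 in edgeR, where 56 had an unadjusted p under 0.05 and 21 passed FDR 0.05; DESeq2 called 32, all lower. Among all genes edgeR at FDR 0.01 called 0.0893% higher and 0.0112% lower. No share over all genes is given in this report for counts by unadjusted p, FDR 0.05 or DESeq2. Those counts have no baseline wherever they appear and are not read as results about the members. The lowest values were Cox7a1 (-1.02, SE 0.47), Cox4i2 (-0.73, SE 0.47) and Ndufs7 (-0.65, SE 0.13, adjusted p = 0.028 by edgeR), the last at 39.4, 34.2 and 37.5 CPM in wild-type neurites and 35.6, 32.8 and 36.8 in knockout neurites, which overlap, unlike its soma values. In 38 genes (45.2%) every knockout LR was below every wild-type LR, against 19.6% of all genes, and in none was every one above, against 14.8%. In CAD 71 of 84 genes were negative with a median of -0.11, 11 had an unadjusted p under 0.05, and edgeR called none, against 0.225% of all genes higher and 0.208% lower. DESeq2 called 1, Cox8a, at -0.42, and complex IV had the lowest median at -0.23, against 0.02 for complex II. In CAD 15 genes (17.9%) had every knockout LR below every wild-type LR, against 9.19% of all genes, and none the reverse, against 6.92%. The direction of the change in CAD depends on the scale. On TPM ratios every complex stood higher on average in knockout than in wild-type CAD. Complexes I to V had -0.35, -0.67, -0.24, -0.18 and -0.31 in knockout and -0.63, -1.08, -0.59, -0.40 and -0.58 in wild-type. The median of all genes moved the same way, with -1.22 and -1.59. On the share of nuclear protein-coding TPM, mean log2 ratios in CAD were lower in knockout for complexes I, III, IV and V. They were 0.37, 0.42, 0.61 and 0.28 against 0.41, 0.51, 0.80 and 0.36. Complex II was higher (0.03 against -0.06), and replicates of I, III and V overlapped. On TPM ratios in N2A, complexes I to V had -0.42, -0.45, -0.37, -0.34 and -0.37 in knockout and -0.40, -0.37, -0.24, -0.38 and -0.27 in wild-type, and all genes -1.09 and -1.49.

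Whether the effect of TDP-43 loss differed between the lines was tested by an interaction term in an edgeR fit of the 24 libraries, a comparison added after seeing the data. In soma the signed change was higher in N2A than in CAD for 79 of 84 genes, with a median difference of 0.29 against 0.02 over all genes. The test called 6 genes higher, against 7.87% of all 19700 genes, and 1 lower, against 2.64%: Ndufa3 (1.22, SE 0.17), Ndufs7 (0.73, SE 0.15), Sdhc (0.69, SE 0.16), Ndufb10 (0.56, SE 0.13), Atp5o (0.52, SE 0.12) and Ndufa10 (0.49, SE 0.13) were higher and Ndufa4l2 (-3.38, SE 0.52) lower, and 39 had an unadjusted p under 0.05. Without replicate 2 the test called 1 gene and without replicate 3 it called 3. In neurites Ndufa3 (1.51, SE 0.16) was called higher, against 6.23% of all genes, and Ndufa4l2 (-3.10, SE 0.52) lower, against 2.94%. For the change of LR 74 genes had negative differences with a median of -0.29; edgeR and DESeq2 called none, 21 had an unadjusted p under 0.05, and of all genes 0.102% were called in each direction. The 2 lines share no library.

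Between Q331K and wild-type TDP-43 no respiratory chain gene was called with the filter on low counts, and neither was any other gene. In soma no member passed FDR 0.01 by edgeR or DESeq2, and 8 had an unadjusted p under 0.05, all lower in Q331K, with a median of -0.09. In neurites and for the change of LR no member passed in either tool, and 2 each had an unadjusted p under 0.05, with medians of -0.06 and 0.06. Of the 13940 genes tested, 0% were called in either direction in all 3 comparisons by edgeR. The soma values lowest in Q331K were those of Atp5g2, at 14.2, 16.0 and 16.5 CPM against 5.65, 7.43 and 11.3 (log2 -0.92, SE 0.33), and Atp5mpl, at 17.7, 17.6 and 19.2 against 10.4, 12.03 and 15.5 (log2 -0.51, SE 0.15). Neither pair of groups overlaps, and without a filter on low counts edgeR called both in soma and 1 gene for the change of LR; Atp5g2 shares its sequence with a more abundant pseudogene transcript, so its values are uncertain. In 10 genes every Q331K soma library was below every wild-type library, against 6.79% of all genes, and in none above, against 7.30%. In neurites the groups did not overlap for 1 gene above and 1 below (1.20% each), against 6.99 and 6.85% of all genes, and for LR for 2 above (2.41%) and 1 below, against 5.42 and 5.96%. In Q331K cells 74 of 83 genes were called higher in neurites than in soma, against 16.7% of all genes (14.5% lower), and the median LR of complex IV was 1.04, 1.08 and 0.87.

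Genes with paralogous isoforms differed in level. Of the 3 genes for subunit c of ATP synthase, whose mature proteins are identical, wild-type CAD soma had 527 ± 118 TPM of Atp5g3, 80.3 ± 15.5 of Atp5g1 and 39.2 ± 7.07 of Atp5g2 (SD, n = 3), with LRs of 0.68, 1.17 and 1.04. The place of Atp5g2 in this order is uncertain, since the identical pseudogene Gm10175 received more counts than it did. Of subunit 4, Cox4i1 had 632 ± 128 TPM and Cox4i2 24.4 ± 1.92. Of subunit 6a, Cox6a1 had 383 ± 103 and Cox6a2 0.912 ± 0.311, and of subunit 7a, Cox7a2 had 158 ± 31.5 and Cox7a1 12.01 ± 2.46. Cox6b1 had 189 ± 36.6 and Cox6b2 0.507 ± 0.337. Ndufa4 had 311 ± 77.9 and Ndufa4l2 1.26 ± 0.191, and Cox7b had 149 ± 32.5 and Cox7b2 49.8 ± 12.1. In each pair the widely expressed form was the more abundant beyond the SDs, and in N2A soma the forms stood in the same order, with Cox7a1 at 27.2 ± 2.01 against 136 ± 15.3 for Cox7a2. Cox8a was the form of subunit 8 in use, at 356 ± 79.0 TPM. The genes that fell with TDP-43 loss in complex IV were the less abundant forms Cox7a1, Cox4i2 and Ndufa4l2, while Cox7b2, at 7.81 ± 0.877 CPM in wild-type and 8.06 ± 1.12 in knockout CAD soma, was not called.

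Some of these genes cannot be counted apart from near-identical copies. Of the 88, 29 have a transcript of another gene with at least 95% identity over at least 50% of the shorter transcript. The pseudogene Gm10175, identical to Atp5g2 over the aligned bases, received 1051% of the counts of Atp5g2, Ndufb4c 315% of those of Ndufb4, Gm10053 82.3% of those of Cycs and Gm15920 58.4% of those of Ndufa12. Values for these 4 genes are uncertain. With the counts of near-identical pseudogenes added, all 10 calls in CAD soma and all 6 in CAD neurites were kept, the rises of Ndufa12 among them.

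The members share short transcripts. Their median transcript length was 681.5 bases (quartiles 542.5 and 996.5, 86 genes) against 2875 for the 12953 protein-coding genes tested in CAD, and their median 3′ untranslated region 143.5 bases against 965. By complex the median length was 683 bases for I, 1186.5 for II, 547 for III, 618 for IV and 722.5 for V. Across genes, which are not independent replicates, LR and transcript length had a Spearman correlation of -0.68 in wild-type CAD (83 members). Over all protein-coding genes tested it was -0.58. In the same order it was -0.25 and -0.50 in N2A and -0.58 and -0.50 in transgene cells. Among transcripts under 1000 bases the median CAD LR was 1.20 for 61 members and 0.77 for all 1045 protein-coding genes tested. In N2A it was 1.27 and 1.04, and in transgene cells 0.91 and 0.61. Between 1000 and 2000 bases it was 0.71 and 0.43 in CAD, 1.10 and 0.76 in N2A and 0.44 and 0.24 in transgene cells. Members therefore had higher medians than all protein-coding genes tested within both length classes of each experiment, a difference given without a test.

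TDP-43 is known to bind GU repeats. The word GUGUG was in the 3′ untranslated region of 36.5% of members, 31 genes, against 68.2% of all protein-coding genes tested in CAD, and per kilobase there were 2.19 against 2.47. Runs of at least 3 GU units were in 9 members, and the following are shown because they lie in genes the results turn on: Ndufa3, which fell in CAD, Cox6b1, which rose in both lines, and Cox7a2l, with the highest LR in complex IV of N2A. Capitals mark the run, at bases 151 to 156 of the 235 in Ndufa3-201, 143 to 148 in Cox6b1-201 and 515 to 520 in Cox7a2l-201.
Ndufa3-201: accuggaauucaGUGUGUagucaggguagc
Cox6b1-201: aaguuucacauuGUGUGUauuacacagcug
Cox7a2l-201: uuucaaaggguuGUGUGUcucgcccagaac
The runs occur in a gene that fell in CAD, in Cox6b1, which rose in both lines, and in Cox7a2l, which rose in N2A soma and was not called in CAD. A match is a description and says nothing of binding.

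Promoters, from 250 bases before to 50 after the start, came from RefSeq on GRCm38.p6 and matched 68 of the 88 members. The motif CCGGAAG, a core of ETS factor sites, was on either strand in 22.1% of members (15) against 9.12% of all 27025 promoters, GCGCATGC, a core of NRF1 sites, in 16.2% (11) against 2.80%, AAGATGGC, a core of YY1 sites, in 11.8% (8) against 2.88%, and ACGTG, a core of hypoxia response elements, in 25% (17) against 19.7%. AAGATGGC was mostly in complex I, where 7 of 32 promoters (21.9%) held it. The promoters of Ndufa3 and Cox7a1, which fell together in CAD, are shown with these motifs in capitals, CACGT being ACGTG read on the other strand. Ndufa3 lies on the plus strand at chr7:3617123-3617422 and Cox7a1 on the plus strand at chr7:30183921-30184220.
Ndufa3: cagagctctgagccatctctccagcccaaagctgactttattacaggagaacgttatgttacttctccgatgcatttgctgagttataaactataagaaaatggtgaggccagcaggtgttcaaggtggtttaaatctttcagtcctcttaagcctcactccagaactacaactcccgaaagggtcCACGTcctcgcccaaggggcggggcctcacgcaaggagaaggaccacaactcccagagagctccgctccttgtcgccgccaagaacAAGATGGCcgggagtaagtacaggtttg
Cox7a1: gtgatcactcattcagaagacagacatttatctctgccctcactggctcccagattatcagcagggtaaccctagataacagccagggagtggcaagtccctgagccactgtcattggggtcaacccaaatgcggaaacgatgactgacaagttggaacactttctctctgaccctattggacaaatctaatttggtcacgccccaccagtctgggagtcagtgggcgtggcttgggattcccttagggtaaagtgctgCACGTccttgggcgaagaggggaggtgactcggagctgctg
Both hold ACGTG once, and AAGATGGC is in that of Ndufa3 alone. The promoters of Cox4i2 and Ndufa4l2 were not matched.

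Other genes of the pathway were followed as lists. Assembly factors, which build the complexes and are not part of them, had smaller wild-type LRs than the subunits: in CAD 10 of 15 for complex I were called higher in neurites (median 0.43), 3 of 4 for complex II (0.50), 4 of 6 for complex III (0.41), 14 of 22 for complex IV (0.63) and 3 of 4 for ATP synthase with its inhibitor (0.50), and in N2A 14 of 15 (0.86), 4 of 4 (0.99), 4 of 6 (0.71), 21 of 22 (1.02) and 4 of 4 (1.10). The 16 genes of the tricarboxylic acid cycle had 14 called in CAD (0.55) and 15 in N2A (0.90), and of all genes 23.7% were called higher in CAD and 32.5% in N2A. In transgene cells the medians were 0.43 for complex I assembly, 0.50 for complex IV assembly and 0.27 for the cycle. With TDP-43 loss in CAD, Nubpl, which delivers iron-sulfur clusters to complex I, went from 3.74, 3.03 and 3.42 CPM to 1.65, 1.31 and 1.96 in soma (log2 -1.05, SE 0.18), without overlap, and Cmc1, a factor for complex IV, fell by 0.79 on the log2 scale in soma and by 0.77 in neurites. In N2A soma 5 of 16 cycle genes rose, against 10.9% of all genes, and none was called by edgeR without replicate 2 or without replicate 3; among the 5 was Idh3g (0.39). All 16 were positive with a median of 0.28, and Bcs1l, which inserts the Rieske protein into complex III, rose from 10.6, 9.69 and 9.33 CPM to 15.8, 18.3 and 16.6 (log2 0.77, SE 0.10). Higd1a, a hypoxia-induced factor for complex IV, went from 65.7, 62.2 and 50.1 CPM to 28.3, 25.8 and 23.2 in N2A neurites (log2 -1.20, SE 0.11), and in CAD neurites its value was -0.39 (SE 0.08), also called.

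RNAs made in mitochondria had a lower LR in N2A than in CAD. The 13 mitochondrially encoded genes had a median wild-type LR of 2.38 in CAD, 13 called against 23.7% of all genes, of 0.37 in N2A, where edgeR called none and 2 had an unadjusted p under 0.05, and of 1.68 in transgene cells, 12 called against 14.9% of all genes. Their LR was lower in N2A than in CAD for 11 of 13 (median -2.03), against 5.76% of all genes, whereas 54 of 84 nuclear members had positive values. They took 14.5, 22.2 and 16.6% of the counts in wild-type CAD neurites and 3.82, 6.78 and 6.12% in wild-type N2A neurites. With TDP-43 loss 5 of 13 rose in N2A neurites (median 0.98), against 6.48% of all genes (1 without replicate 2 or without replicate 3), where the share was 8.54, 14.0 and 8.998%, and mt-Cytb, the complex III subunit, rose in N2A soma (0.87, SE 0.19), though it was not called without replicate 3; in CAD neurites 2 of 13 were called lower, mt-Cytb (-0.62, SE 0.17) and mt-Nd6 (-0.83, SE 0.13), a share near the 13.5% of all genes, and 1 was called without replicate 1 or without replicate 3. Among regulators of nuclear respiratory genes, 8 tested in CAD and 9 in N2A, the calls were near the shares over all genes. Gabpa, an ETS factor, was called higher in CAD soma (0.63, SE 0.06; 11.2% of all genes) and neurites (0.47, SE 0.06; 11.8%), Pprc1 lower in CAD neurites (-0.32, SE 0.07; 13.5%) and Ppargc1b higher in N2A neurites (0.71, SE 0.12; 6.48%). Pprc1 was not called without replicate 1 or 2, nor Ppargc1b without replicate 2 or 3, and in N2A soma edgeR called none, where 5 had an unadjusted p under 0.05.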

How the data were processed

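Soma and neurite RNA sequencing was analysed from Salmon tables deposited for 36 mouse libraries. Per the submitters' notes the authors trimmed reads with cutadapt and quantified them with Salmon, without version numbers. The deposited values used were the estimated count and the TPM of each transcript. The study names GENCODE version 17 on mm10, while transcripts were summed to genes here with GENCODE vM21. At most 0.129% of a library's counts had no gene. Estimated counts were rounded to whole numbers.

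Members, lists and comparisons were chosen with earlier results of these data known. Genes past filterByExpr were tested with edgeR 4.0.16 (TMM, quasi-likelihood, R 4.3.3) on the 12 libraries of an experiment, on the 12 wild-type libraries of CAD and N2A, or on all 24 of CAD and N2A. Benjamini-Hochberg adjustment ran over all genes, with calls at FDR 0.01, and the test was tried on simulated counts. LR per library used log2 of CPM plus 0.5, or of TPM plus 0.1 as an alternative. Genes named by rule were the highest and lowest wild-type LR of each complex, the 5 largest rises and falls past the threshold per genotype contrast, isoform groups, complex II and the highest and lowest TPM. Other genes, transcripts, GU runs and promoters were chosen after their values were seen. Near-identical copies were found with blastn 2.17.0 (95% identity, 50% of the shorter transcript, at least 150 aligned bases).

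Alternatives were FDR 0.05, DESeq2 1.42.0, upper-quartile scaling, other count filters, counts scaled by length, a replicate block, leaving out mitochondrially encoded counts, adding near-identical copies, subunits only, leaving out each replicate, and scaling by library size alone. Other experiments of the series were not used here. Results of a few genes are not reported here.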

Additional observations from a re-analysis of the deposited data

Results flagged for a closer look

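A closer look was given to genes for which CAD and N2A differed, each tested by an interaction term in edgeR with 3 libraries per group; values are log2 differences, N2A minus CAD. The wild-type LR was lower in N2A for Cox6a1 (-1.48), Ndufb9 (-0.84), Cox8a (-0.73), Cox4i1 (-0.61), Cox6c (-0.47) and Uqcr11 (-0.42). It was higher in N2A for the complex II genes Sdhd (0.73), Sdhc (0.71) and Sdhb (0.41), for Ndufs7 (0.72) and Ndufv2 (0.47) of complex I, for Uqcrb (0.63) and Uqcrfs1 (0.59) of complex III, for Atp5f1 (0.59) and Atp5a1 (0.47) of complex V, and for Cycs (0.64). The change in soma with TDP-43 loss was higher in N2A for Ndufa3 (1.22), Ndufs7 (0.73), Sdhc (0.69), Ndufb10 (0.56), Atp5o (0.52) and Ndufa10 (0.49), and lower for Ndufa4l2 (-3.38). The change in neurites was higher in N2A for Ndufa3 (1.51) and lower for Ndufa4l2 (-3.10). The comparisons of the change with TDP-43 loss were chosen after seeing the data. For the LR 11.9% of members were called higher and 7.14% lower, against 15 and 5.76% of all genes. The soma change gave 7.14 and 1.19% against 7.87 and 2.64%, and the neurite change 1.19% each against 6.23 and 2.94%. Upper-quartile scaling turned the LR split towards lower values in N2A, and 10 of the 16 calls were kept. Without replicate 2 the calls kept were 2 of 16 for the LR and 1 of 7 for the soma change. Line and clone cannot be told apart.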

How the results depend on the processing

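Counts below are respiratory chain genes called, in either direction. Shares over all genes under the alternatives are not given in this section, so the counts show dependence on processing only. CAD soma had 10 with TDP-43 loss, 25 at FDR 0.05 and 17 with DESeq2. CAD neurites had 6, against 12 at FDR 0.05, 12 with DESeq2 and 10 with library size alone. N2A soma had 37 and 59 at FDR 0.05, and N2A neurites 3 and 5. For the change of LR, where no gene was called, DESeq2 called 1 in CAD and 32 in N2A, FDR 0.05 called 21 in N2A, and 9 were called there without a filter on low counts. In transgene cells with wild-type TDP-43, 73 LRs were called and 40 with library size alone. The Q331K tests called none, and without a filter 2 in soma and 1 for LR.

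The wild-type LR differed between lines for 16 genes, against 29 at FDR 0.05 and 44 with library size alone. The change in soma differed between lines for 7 genes, against 28 at FDR 0.05, 12 with DESeq2, 3 with upper-quartile scaling, 3 with library size alone and 15 without a filter. In neurites it was 2, against 4 at FDR 0.05 and 6 with library size alone. With a replicate block by number the LR between lines had 26 and the soma difference 12. Library size alone and the comparisons of the change between lines were chosen after seeing the data.

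On TPM ratios the mean LR of complexes I to V was -0.63, -1.08, -0.59, -0.40 and -0.58 in wild-type CAD, -0.35, -0.67, -0.24, -0.18 and -0.31 in knockout CAD, -0.40, -0.37, -0.24, -0.38 and -0.27 in wild-type N2A, and -0.42, -0.45, -0.37, -0.34 and -0.37 in knockout N2A. In wild-type N2A replicate 2 stood near or above 0 in every complex. In transgene cells it was -0.18, -0.60, -0.18, 0.077 and -0.065 with wild-type TDP-43 and -0.14, -0.57, -0.23, 0.031 and 0.0045 with Q331K. The cause was not tested. As a mean over genes complex III had 1.09 in wild-type and 0.97 in knockout CAD.

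Leaving out each replicate in turn, the calls ranged from 80 to 81 for the wild-type LR of CAD, 79 to 82 of N2A and 60 to 73 of transgene cells, from 3 to 10 in CAD soma, 3 to 8 in CAD neurites, 1 to 36 in N2A soma and 2 to 3 in N2A neurites. They ranged from 33 to 50 for soma between lines, 2 to 17 for LR between lines, 1 to 8 for the soma change between lines and 1 to 2 for the neurite change. All changes of LR and all Q331K tests stayed at 0. Mean LRs ranged in wild-type CAD from 1.06 to 1.13 (I), 0.62 to 0.69 (II), 1.13 to 1.18 (III), 1.33 to 1.44 (IV) and 1.10 to 1.17 (V), and in wild-type N2A from 1.14 to 1.29, 1.12 to 1.34, 1.24 to 1.44, 1.16 to 1.35 and 1.26 to 1.36. The share of TPM ranged from 2.29 to 2.36% in wild-type and 2.53 to 2.56% in knockout CAD soma, and from 2.28 to 2.35% and 2.61 to 2.69% in N2A soma.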
